A study of Mus musculus with 3 samples.

Results

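The 10 Frizzled receptor genes of the mouse, Fzd1 to Fzd10, were taken from a single-cell RNA count matrix by their symbols. All 10 were among its 51923 genes. The cells came from embryos that carried Mesp1-Cre, which is active in early mesoderm, the red fluorescent reporter Ai9 and a floxed allele of Wls. Controls had 1 floxed Wls allele (Wls fl/+) and mutants had both alleles floxed (Wls fl/fl), on a C57BL/6 background. Every embryo thus carried the Cre driver and the reporter, so neither was compared with embryos that lack them. Cells positive for the reporter were sorted at embryonic day (E) 8.0, 8.5 and 9.5 after lipid barcodes had been attached to the cells of each sample (MULTI-seq). They were pooled and captured with the 10x Chromium v3 kit.

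Frizzled proteins are membrane proteins that bind Wnt ligands through a cysteine-rich domain outside the cell. With the co-receptors Lrp5 and Lrp6 they lead to the stabilisation of beta-catenin, and with Ror, Ryk and other partners they act in pathways that do not need it, such as planar cell polarity. By sequence the family falls into the groups Fzd1, Fzd2 and Fzd7, then Fzd5 and Fzd8, then Fzd4, Fzd9 and Fzd10, and last Fzd3 and Fzd6. Wls carries lipid-modified Wnt proteins to the cell surface, so cells without it release little Wnt but can still receive it. Wnt signals guide the formation of mesoderm, and later act at different times on heart progenitors, blood and vessels.

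The matrix held 14777 cells and 331587989 unique molecular identifiers (UMIs, each counting 1 captured RNA molecule), of which 95094 belonged to Frizzled genes. A cell had a median of 21739 UMIs. Cells fell into 22 barcode samples, 12 control and 10 mutant, with 3 of each genotype at E8.0, 2 controls and 1 mutant at E8.5, 6 of each at E9.5 and 1 control of 28 cells labelled E7.5. Whether a barcode held 1 embryo or several is not stated, so p-values measure the spread between barcode samples. All E8.0 samples came from run 1, all E8.5 samples from run 2, and the E9.5 samples from all 3 runs. Bar6, an E9.5 control, held 6 cells and 37 Frizzled UMIs. Of the cell barcodes, 23 occurred in more than 1 run. Wls lay between 35.9 and 65.4 CPM (the usual depth-scaled unit, the UMIs of a gene relative to all UMIs of its sample) in the controls of E8.0 to E9.5 and between 3.72 and 14.2 CPM in the mutants, with no overlap.

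By class and stage, Fzd1 had its highest mean in cardiomyocyte-marker-positive cells at E9.5 and Fzd4 in endothelial cells at E9.5 (38.8 CPM). Fzd4 was also called higher in cardiomyocyte and, with limits given below, heart-field cells than in the other cells. Fzd5 was the one member high in erythroid cells. Results turn on these 3 members, which differed in where they were high, so the stretches before their starts are shown. They come from RefSeq on GRCm38.p6, run 5′ to 3′ towards the gene and lie at chr5:4758217-4758466 on the minus strand (Fzd1), chr7:89404116-89404354 on the plus strand (Fzd4) and chr1:64737752-64738000 on the minus strand (Fzd5). Capitals mark matches on either strand to CTTTG, the core letters bound by TCF and LEF factors, and to GATAA, which GATA factors bind.
Fzd1: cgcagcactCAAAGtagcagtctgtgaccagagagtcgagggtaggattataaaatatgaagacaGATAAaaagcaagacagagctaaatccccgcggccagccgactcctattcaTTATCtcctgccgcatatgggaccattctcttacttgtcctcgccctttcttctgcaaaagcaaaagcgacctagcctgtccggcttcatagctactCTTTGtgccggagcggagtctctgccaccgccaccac
Fzd4: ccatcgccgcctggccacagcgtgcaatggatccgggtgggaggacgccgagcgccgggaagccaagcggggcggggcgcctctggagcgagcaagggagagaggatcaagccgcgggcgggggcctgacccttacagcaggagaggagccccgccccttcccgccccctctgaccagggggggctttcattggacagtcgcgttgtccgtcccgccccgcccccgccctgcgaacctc
Fzd5: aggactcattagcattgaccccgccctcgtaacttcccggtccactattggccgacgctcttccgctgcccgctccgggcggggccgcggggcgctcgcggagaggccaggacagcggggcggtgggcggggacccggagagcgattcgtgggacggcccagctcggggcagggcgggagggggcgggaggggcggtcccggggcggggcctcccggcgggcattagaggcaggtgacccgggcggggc
In the Fzd1 stretch, 4 matches were found. CTTTG lay 37 bases before the RefSeq start on the strand shown and 241 bases before it on the other, and GATAA lay 185 and 134 bases before it. No match to either set of letters was present in the Fzd4 or the Fzd5 stretch. Of 32851 windows of 250 bases in the same table, 48.6% held CTTTG and 22.6% held GATAA, so a match is common. The Fzd4 and Fzd5 windows were rich in CG pairs, with 25 and 32 of them, against 12 for Fzd1 and a median of 6 over all windows. RefSeq windows were matched for 6 of the 10 members, and Fzd2, Fzd3, Fzd6 and Fzd8 had none.

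Fzd2 was the main Frizzled transcript of Mesp1-lineage cells. Its mean level over the 21 samples of E8.0 to E9.5 was 151 ± 37.3 CPM (SD), and it made up 55.1 ± 7.37% of all Frizzled UMIs of a sample. Fzd3, which acts in planar cell polarity and axon guidance, followed with 48.2 ± 16.9 CPM, and Fzd7, a close relative of Fzd2, with 20.9 ± 7.27 CPM. UMIs are counted once per molecule, and the levels were not divided by gene length.
Fzd2 exceeded Fzd3 in 20 of 21 samples, Bar6 being the exception, and Fzd3 exceeded Fzd7 in 21 of 21. Below these, Fzd4, which also binds the non-Wnt ligand Norrin, had 15.5 ± 4.69 CPM and Fzd1 14.0 ± 4.82 CPM. They could not be ranked, since Fzd4 was above Fzd1 in 12 of 21 samples. Fzd10 had 10.5 ± 7.37 CPM and Fzd8 5.81 ± 1.62 CPM. The lowest levels were those of Fzd5 (3.87 ± 1.63 CPM), Fzd6 (1.504 ± 0.933 CPM) and Fzd9 (0.777 ± 0.472 CPM). Fzd6 (chromosome 15, 39006034 to 39038188, plus strand) overlaps the antisense gene Gm26704, and Fzd3 (chromosome 14, 65192449 to 65262463, minus strand) the pseudogene Gm9086 on the other strand. Both are in the matrix. Fzd3 also overlaps Gm27263 on its own strand, and Fzd5 overlaps Gm38058 on the other strand, which has no row in the matrix. Without a stated strand setting the reads of such pairs cannot be told apart. Fzd6 shares its role in planar cell polarity with Fzd3 but had a mean level far below it in the same samples.

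The summed level of the family had similar means at all stages when runs were pooled, 285 ± 42.8 CPM at E8.0 (n = 6), 271 ± 34.3 CPM at E8.5 (n = 3) and 266 ± 59.2 CPM at E9.5 (n = 12). The runs differed at E9.5, with 293 to 331 CPM in run 1 and 150 to 278 CPM in runs 2 and 3. The E8.0 samples, all of run 1, ran from 212 to 334 CPM. After each cell was thinned to 5000 UMIs, which dropped 365 control cells and 82 mutant cells with fewer UMIs, the mean number of different Frizzled genes with a UMI per cell lay between 0.923 and 1.12 in the stage and genotype groups. Without thinning it lay between 2.09 and 2.86. In both counts the ranges of control and mutant samples overlapped at E8.0 and at E9.5.

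**Figure D1:**
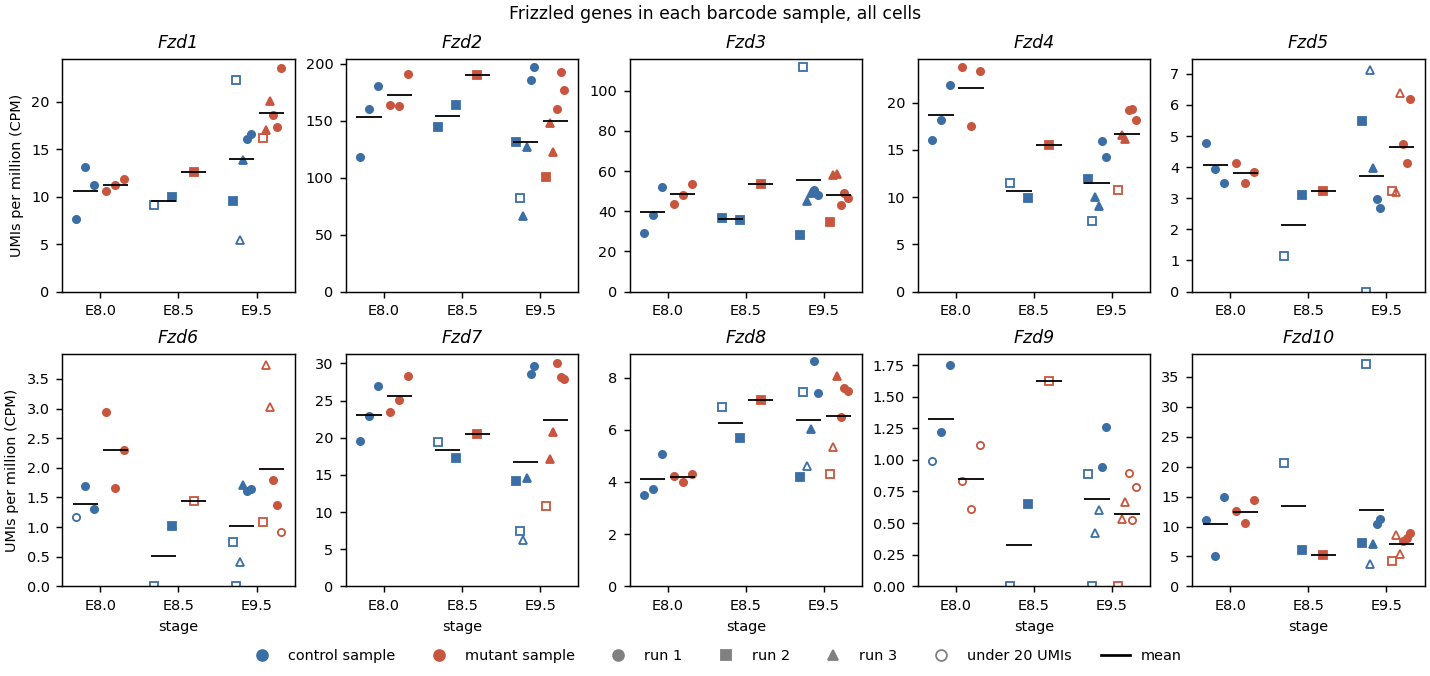
Level of each Frizzled gene in CPM (vertical axis, from 0, with its own scale per gene) in each barcode sample by stage, for control and mutant samples; marker shapes give the run, open markers stand for under 20 UMIs and black lines for group means. From E8.0 to E9.5 Fzd2 lies between 66.6 and 198 CPM and Fzd9 at or below 1.75 CPM, and the high Fzd3 and Fzd10 values at E9.5 belong to Bar6, the sample of 6 cells.

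To see where among the sorted cells each receptor was expressed, cells were taken as positive for a lineage when at least 3 of its 6 marker genes had at least 2 UMIs each (5 of 6 for the erythroid list). Cells positive for more than 1 list, 8.90% of all, were left out of the positive cells, and 34.9% of cells were positive for none. The other cells were all cells not positive for the list in question, so cells positive for several other lists stayed among them. The positive cells of a sample were compared with the other cells of the same sample in 8 lists. Frizzled genes defined no class. Of 76 tests of members, 48 passed, 20 of them higher and 28 lower, beside 38.0% of 131867 gene tests over the same lists. Each class held its own mixture of receptors, and erythroid cells had low levels of every receptor but Fzd5.

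In erythroid-marker-positive cells 78.0% of the 15485 genes tested passed, so the count of members is read against a high background. There 8 of 9 members tested were lower and 1, Fzd5, was higher. Fzd5 lies on chromosome 1 (64730558 to 64737751, minus strand, GRCm38) and is known for its part in yolk sac vessel growth. Over 16 samples its level in erythroid cells ran from 6.64 through a median of 10.8 to 14.8 CPM. The other cells of the same samples had a mean of 2.64 CPM, and Fzd5 was higher in the erythroid cells of 16 of 16 samples. The fold was 8.61 (log2 3.11, SE 0.19, adjusted p = 1.27e-12), and it passed in each of 6 alternatives, from 2.87 to 3.37. Fitted folds are on the scale of edgeR's normalised library sizes, and in this class they differ from the ratios of mean CPM, being larger for Fzd5 and smaller for Fzd2. Fzd2 showed the opposite: its mean was 5.12 CPM in erythroid cells and 197 CPM in the others, 21.5-fold lower (adjusted p = 1.14e-15). Fzd1, Fzd3, Fzd4, Fzd7 and Fzd10 were 9.39-fold to 16.3-fold lower, and the remaining calls, Fzd8 and Fzd6, 3.52-fold and 1.91-fold lower. A share of 25.5 ± 6.93% of erythroid cells had an Fzd5 UMI (6.06 ± 2.31% after thinning). In cardiomyocyte-marker-positive cells, with a median of 20464 UMIs per cell against 28575 in erythroid cells, the share was 3.60 ± 2.30% (1.12 ± 1.43% after thinning).

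Endothelial-marker-positive cells were found in 8 samples with at least 20 of them. They had low levels of the receptors that dominated elsewhere, and 35.3% of the 17422 genes tested passed. Of 10 members 5 were lower: Fzd7, 6.99-fold (mean 3.57 against 26.0 CPM), Fzd2, 6.19-fold (29.3 against 177 CPM), Fzd5, 5.35-fold, Fzd1, 4.64-fold, and Fzd3, 2.94-fold. All 5 were lower in 8 of 8 samples. The Fzd5 value rests on 4 UMIs in endothelial cells, and its call was lost once erythroid cells were left out of the comparison (log2 -1.57, adjusted p = 0.0596). Higher were Fzd10, 1.87-fold (mean 19.8 CPM, range 10.5 to 31.0, higher in 7 of 8 samples, adjusted p = 0.000685) and Fzd9, 3.63-fold (mean 3.44 CPM, from 20 UMIs in all, adjusted p = 0.00264). Both calls rest on the marker threshold: with 1 marker more required neither passed, and with 1 marker fewer Fzd9 did not. Fzd4, a receptor required for vessel growth in the retina, had a mean of 27.4 CPM against 16.3 CPM, with an adjusted p of 0.0645. It ranged from 6.05 to 51.2 CPM across endothelial samples, a spread that followed stage and is described further on.

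Cardiomyocyte-marker-positive cells differed from the other cells in Fzd10 most of all. Of the 13405 genes tested 63.5% passed, and of 9 members 2 were higher and 3 lower. Fzd10 lay between 0 and 2.28 CPM in 18 samples, with a mean of 0.917 CPM against 10.2 CPM in the other cells (10.3-fold lower, lower in 18 of 18, adjusted p = 9.1e-13). Fzd1 was 1.64-fold higher (mean 25.0 against 12.1 CPM, higher in 14 of 18 samples, adjusted p = 0.000454) and Fzd4 1.496-fold higher (23.6 against 15.1 CPM, higher in 16 of 18). Fzd2, at 120 ± 19.8 CPM still the highest member, was 1.45-fold lower. Fzd5 was 2.36-fold lower, a call lost once erythroid cells were left out of the comparison (log2 fold change -0.29, adjusted p = 0.328).

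Fzd2 had its highest mean in cells of the cranial mesenchyme list. In cells positive for cranial mesenchyme markers Fzd2 ran from 236 through 325 to 382 CPM over 15 samples, 1.95-fold above the other cells and higher in 15 of 15 (adjusted p = 1.4e-13). Of the 10 members 4 were higher there (Fzd2, Fzd7, Fzd1 and Fzd3) and 2 lower, beside 31.7% of the 18922 genes tested. The lower ones were Fzd4, 2.18-fold, and Fzd5, 2.70-fold, a call lost without erythroid cells in the comparison (log2 -0.41, adjusted p = 0.394). Fzd3 had the smallest of these folds (log2 0.27), and its call was lost with 1 marker fewer or more, in controls alone and without erythroid cells in the comparison, and its log2 value was -0.033 with at least 50 cells per sample. Cells positive for paraxial mesoderm markers had 3 members higher and 2 lower, against 30.3% of 17327 genes: Fzd2, 1.51-fold higher, Fzd7, 1.495-fold higher, Fzd8, 1.64-fold higher, and Fzd10 and Fzd5, 1.55-fold and 5.82-fold lower. The Fzd5 value rests on 16 UMIs in the paraxial-positive cells of all 13 samples, and its log2 value of -2.54 was -1.54 without erythroid-positive cells in the comparison. For the anterior heart field and pharyngeal list 2 members were higher, Fzd2, 1.51-fold, and Fzd4, 1.65-fold, and 3 lower, Fzd8, Fzd10 and Fzd1, in 6 samples and against 16.1% of 17231 genes. The Fzd1 call there was lost with 1 marker fewer, with the size factors of DESeq2 and in controls alone, and its log2 value was 0.37 when cells of several lists were kept. The Fzd4 call was lost in controls alone and with cells of several lists kept, and the Fzd10 call in controls alone and with 1 marker fewer.

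In the main comparison the posterior heart field and splanchnic class held the most members above the other cells, 5 higher and 1 lower of 10, against 33.8% of 16336 genes. The higher ones differed by small folds: Fzd7 1.43-fold, Fzd4 1.41-fold, Fzd3 1.34-fold, Fzd10 1.32-fold and Fzd2 1.30-fold. With erythroid cells left out of the other cells, Fzd4 and Fzd10 no longer passed, nor did Fzd4 with at least 50 cells per sample or Fzd10 with 1 marker more. Allantois and posterior lateral plate cells had the highest Fzd10 of the 8 classes. Fzd10 lies on chromosome 5 (128600844 to 128604093, plus strand). It ran from 14.4 through 27.1 to 54.1 CPM over 9 samples, 3.02-fold above the other cells and higher in 9 of 9 (adjusted p = 8.01e-06). Fzd7, Fzd3, Fzd2 and Fzd5 were lower there, so 1 member was higher and 4 lower of 9, against 24.0% of 15739 genes. The Fzd2 and Fzd5 calls were lost with at least 50 cells per sample, and that of Fzd2 in controls alone too. Fzd2 was lower in 6 of 9 samples, and the comparison pools the stages. Its level in these cells was 39.8 to 85.9 CPM at E8.0, 181 CPM at E8.5 and 156 to 234 CPM at E9.5. The other cells of the 9 samples had a mean of 171 CPM. The 2 control samples with at least 20 neural-marker-positive cells, too few for a test, had a different order again, with a mean Fzd3 of 192 CPM above Fzd2 at 137 CPM, and Fzd10 at 55.3 and Fzd9 at 16.1 CPM.

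**Figure D2:**
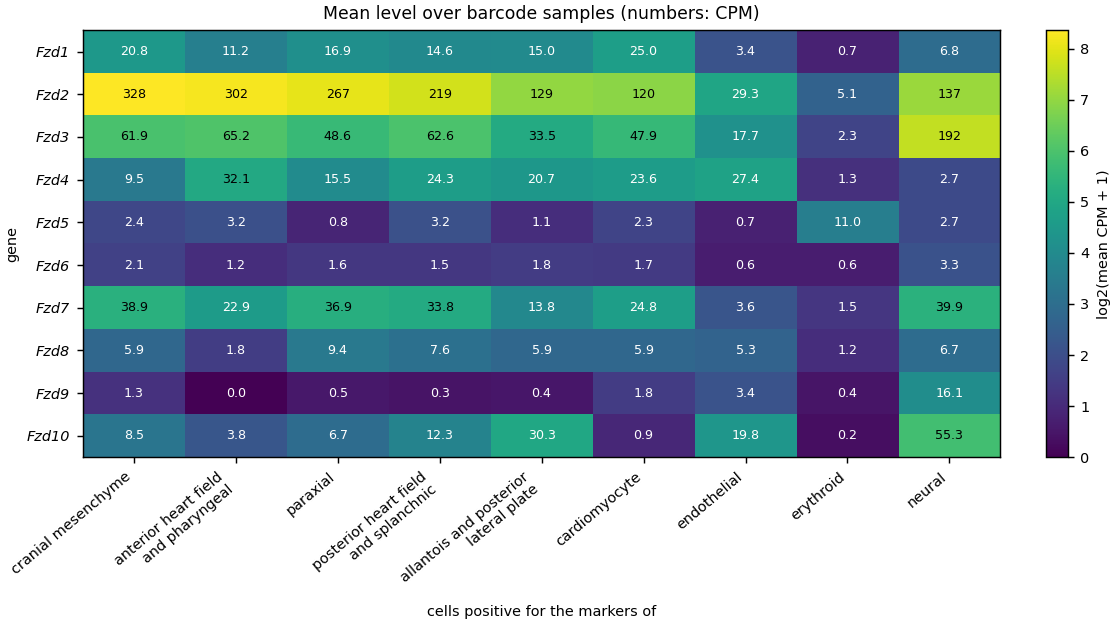
Mean level of each Frizzled gene (rows) over barcode samples in the cells positive for each marker list (columns), in CPM, with colour on a log2(CPM + 1) scale. Fzd2 is the highest member in 7 of the columns, Fzd5 in the erythroid column at 10.97 CPM and Fzd3 in the neural column at 192 CPM.

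**Figure D3:**
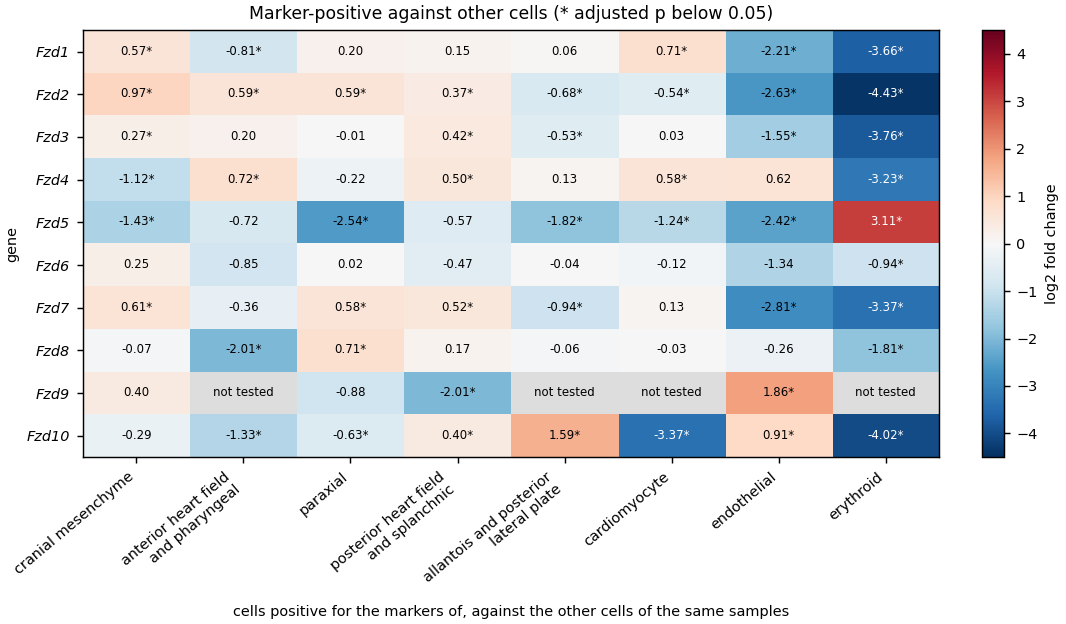
Log2 fold change of each Frizzled gene (rows) between the cells positive for a marker list (columns) and the other cells of the same barcode samples; red is higher, blue lower, and asterisks mark an adjusted p below 0.05. The erythroid column is blue except for Fzd5 (3.11) and Fzd9, which was not tested there. Fzd10 runs from -4.02 in erythroid to 1.59 in allantois and posterior lateral plate cells.

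Of the 48 calls, 9 belonged to the erythroid list. With erythroid cells left out of the other cells, the calls in the remaining 7 lists changed, and some were not called before. Lost were the Fzd5 calls in cardiomyocyte, endothelial, cranial and allantois cells. Those of Fzd4 and Fzd10 in posterior heart field cells and of Fzd3 in cranial cells were lost too. The shares of cells with a UMI followed the same order. Fzd2 was seen in 98.2 ± 3.56% of cranial mesenchyme cells and 11.1 ± 7.01% of erythroid cells (79.7 ± 9.38% and 2.36 ± 2.24% after thinning). Fzd4 was seen in 40.3% of endothelial and 3.74 ± 3.56% of erythroid cells (15.4 ± 7.62% and 0.991 ± 1.46% after thinning), and Fzd10 in 42.4 ± 11.8% of allantois and 1.92 ± 1.91% of cardiomyocyte cells (13.2 ± 5.49% and 0.356 ± 0.862% after thinning). RNA free in the droplets also gives UMIs, and the lower share of each pair may hold such background. Cells of each list other than the erythroid one had a median of 3 of the 6 erythroid markers at 2 or more UMIs. Median depths were 23349 UMIs in cranial mesenchyme, 23751 in endothelial and 25412 in allantois cells.

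CPM levels depend on the whole RNA of a class, and fewer cells of a type within a class cannot be told apart from less RNA per cell.

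Patterns across classes and stages were compared over 25 means, 1 for each lineage and stage, which share samples and depth, so correlations are given as a description. Fzd2 ran with Fzd7 (Pearson r of log2(CPM + 1) 0.927) and with Fzd3 (0.895), and Fzd3 with Fzd7 (0.915). Fzd5 ran against Fzd4 (-0.618) and Fzd10 (-0.584). Among 8500 genes with a mean above 10 CPM, the closest to Fzd2 were Kctd15 (0.963), Arl3 (0.959) and H2afy2 (0.959), and to Fzd3 Myo5a (0.967), Neo1 (0.954) and Tmem47 (0.953). Gli2, a transcription factor of Hedgehog signalling, came nearest to Fzd7 (0.953), with Cxadr (0.953) and Pard6g (0.946) next. For Fzd4 they were Gramd1a (0.915), the imprinted long RNA Airn (0.906) and the matrix protease gene Mmp14 (0.902), and for Fzd1 Pcdh18 (0.898), S1pr2 (0.896) and Snhg18 (0.891). Fzd10 had the least close neighbours, Zfp746 (0.863), Crmp1 (0.828) and Rab8a (0.822). The other members lay below 10 CPM and were not matched.

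From E8.0 to E9.5, 3 members changed in the sum of all cells, beside 19.5% of 20831 genes. Fzd8 rose 1.71-fold (log2 0.77, SE 0.12, adjusted p = 0.000136) and Fzd1 1.55-fold (log2 0.63, SE 0.15, adjusted p = 0.00412), and Fzd4 fell by 0.34 on the log2 scale (SE 0.11, adjusted p = 0.0246). The median log2 fold change of the 10 members was -0.07, and that of all genes 0.0032. Fzd8 ran from 3.51 through 4.12 to 5.07 CPM at E8.0 (n = 6) and from 4.18 through 6.94 to 8.65 CPM at E9.5 (n = 12), so the ranges overlapped at their edges. In the controls alone none of the 3 passed, with log2 values of 0.74 for Fzd8, 0.39 for Fzd1 and -0.48 for Fzd4. Of all genes, 652 of 19579 passed in that fit. In run 1 alone, which held all E8.0 samples, Fzd8 (log2 0.88) and Fzd1 (0.75) passed, and so did Fzd7, whose log2 value was 0.26 there (adjusted p = 0.0213) and -0.08 in all runs. Fzd2 also differed in sign, 0.18 in run 1 and -0.06 in all runs, and passed in neither. Of 17577 genes tested in run 1 alone, 5222 passed. The Fzd4 call was lost with run 1 alone, with run as a term, and without Bar25, Bar26 or Bar29. At E8.5 against E8.0, where stage and run coincide, Fzd8 rose (log2 0.81, adjusted p = 0.00437) and Fzd4 fell by 0.52 (adjusted p = 0.0321), beside 15.4% of genes. Neither call held without Bar1 or without Bar3, and that of Fzd4 was lost without each of Bar2, Bar25, Bar26 and Bar29 too. The Fzd4 call was also lost with run as a further term (log2 -0.38, adjusted p = 0.546), while that of Fzd8 held (log2 1.29, adjusted p = 0.0227). Between E8.5 and E9.5 edgeR passed no gene (0% of 20831), though 4360 genes and 1 member, Fzd1, had an unadjusted p below 0.05. DESeq2 called 1744 of the 20831 genes and no member, with Fzd1 nearest (DESeq2 adjusted p = 0.0637).

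The same stages were then compared within single lineages. Of 41 tests of members in 7 lists, 11 passed between E8.0 and E9.5, 9 higher and 2 lower, beside 14.6% of 72550 gene tests over the same lists. These fits were added after the values by stage had been seen. Most of their alternatives left out samples 1 at a time, and the rest used DESeq2 size factors, run 1 alone or controls alone. None varied the number of markers required. Fzd1 in cardiomyocyte-marker-positive cells was the plainest case. Fzd1 (chromosome 5, 4753839 to 4758035, minus strand, GRCm38) ran from 7.18 through 8.77 to 15.5 CPM at E8.0 (n = 6), lay at 16.6 and 16.7 CPM in the 2 samples of E8.5, and ran from 20.5 through 29.3 to 78.8 CPM at E9.5 (n = 10). The ranges did not overlap. The rise was 3.53-fold (log2 1.82, SE 0.25, adjusted p = 3.49e-05) and passed under each of 21 alternatives, from 1.31 to 2.06. Fzd8 rose there as well (2.31-fold, adjusted p = 0.00617, but 0.0818 in controls alone), while Fzd2, Fzd3, Fzd4 and Fzd7 did not pass. Of all 11701 genes tested in these cells 22.1% passed.

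Fzd1 also rose in paraxial cells, from a mean of 8.68 to 21.6 CPM (log2 1.38, adjusted p = 0.00379, beside 5.15% of 9377 genes), and in allantois and posterior lateral plate cells, from 8.30 to 20.5 CPM (2.94-fold, adjusted p = 0.0139). Both were lost in the controls alone, and the second also without Bar24 or without Bar19. In posterior heart field and splanchnic cells Fzd1 had means of 15.7 and 14.4 CPM, and in cranial mesenchyme cells 20.7 and 22.6 CPM, and neither passed. Whether the rise differed between these classes was not tested.

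Fzd4 (chromosome 7, 89404355 to 89413134, plus strand) went in opposite directions in endothelial and posterior heart field cells. In the endothelial class it had 6.05, 10.5 and 20.3 CPM at E8.0, 27.0 CPM at E8.5, and 29.9, 36.0, 38.1 and 51.2 CPM at E9.5, with no overlap between the first and the last stage. It rose 3.55-fold (log2 1.83, SE 0.40, adjusted p = 0.0338), beside 1.58% of 8949 genes. That call was lost without each of Bar19, Bar22, Bar23, Bar27 and Bar29, and the log2 value ran from 1.37 without Bar29 to 2.70 without Bar19. In the controls alone the log2 value was 2.70 (adjusted p = 0.0593), with 1 sample, Bar29, at E8.0, which was taken to vary like the others. Posterior heart field and splanchnic cells ran from 29.0 through 34.6 to 52.2 CPM at E8.0 (n = 6) and from 11.3 through 17.3 to 24.3 CPM at E9.5 (n = 7), again without overlap. Here Fzd4 fell by 1.13 on the log2 scale (SE 0.18, 2.18-fold lower, adjusted p = 0.000201) and passed in each of 18 alternatives, beside 19.0% of 11433 genes. The difference between the effects was tested in the 8 samples that held both classes, with the sample as a block. It was 2.775 on the log2 scale (SE 0.39, adjusted p = 9.76e-05), beside 1.81% of 11193 genes, and lay between 2.44 and 3.20 when each sample was left out. At E8.0 the samples were the control Bar29 and the mutants Bar27 and Bar28. At E9.5 they were the controls Bar9, Bar22 and Bar23 and the mutant Bar19. The fit had no term for genotype within a class, so stage and genotype cannot be fully told apart in this difference. In cardiomyocyte cells Fzd4 had means of 24.6 and 23.3 CPM and did not pass.

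In posterior heart field and splanchnic cells the pair Fzd5 and Fzd8, close relatives by sequence, both rose. Fzd8 ran from 1.67 through 3.06 to 6.21 CPM at E8.0 and from 7.51 through 9.99 to 18.8 CPM at E9.5 (2.81-fold, adjusted p = 0.00169, lost in the controls alone). Fzd5 rose 2.93-fold (adjusted p = 0.0116), from 19 UMIs at E8.0 and 46 at E9.5. Fzd10 fell by 0.69 (adjusted p = 0.0348), a call lost with run 1 alone, in the controls alone and without each of Bar19, Bar22, Bar24, Bar27 and Bar29. In allantois and posterior lateral plate cells Fzd2 (chromosome 11, 102604396 to 102608058, plus strand) had 39.8, 47.9, 70.6 and 85.9 CPM at E8.0, 181 CPM at E8.5, and 156, 160, 182 and 234 CPM at E9.5. It rose 3.23-fold (log2 1.69, SE 0.21, adjusted p = 0.000331), beside 10.7% of 11219 genes, and passed in each of 12 alternatives.

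In erythroid cells Fzd5 rose (log2 0.99, SE 0.17, adjusted p = 0.000163), beside 32.7% of 10254 genes, but on the plain CPM scale its mean went from 9.69 to 12.1 CPM, 6.64 to 12.0 CPM at E8.0 and 9.29 to 14.8 CPM at E9.5. The fitted fold of 1.99 is on the scale of edgeR's normalised library sizes and is larger than the ratio of these means. No member passed in cranial mesenchyme cells (0 of 6 by edgeR, beside 7.16% of 9617 genes). At an unadjusted p below 0.05 there were 2 members and 2088 of the 9617 genes. In run 1 alone Fzd3 passed there (log2 -0.58, adjusted p = 0.0124), against -0.53 (adjusted p = 0.0826) in all runs. Whether a class held the same kinds of cells at both stages was not tested.

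**Figure D4:**
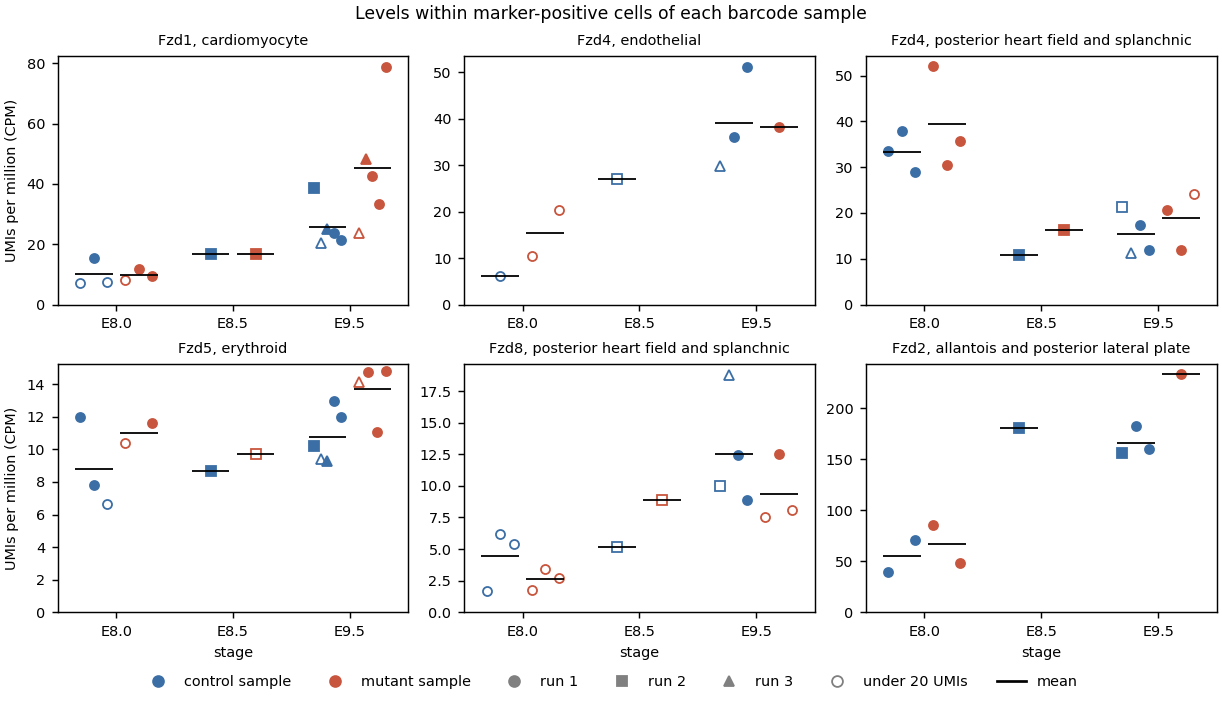
CPM (vertical axes from 0, with a scale per panel) of 5 Frizzled genes in marker-positive cells of each barcode sample by stage, for control and mutant samples; marker shapes give the run, open markers stand for under 20 UMIs and black lines for group means. Fzd1 in cardiomyocyte, Fzd4 in endothelial and Fzd2 in allantois cells lie higher at E9.5 than in any E8.0 sample, and Fzd4 in posterior heart field cells lies lower.

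Of the 10 members 1, Fzd4, was called between Wls mutants and controls in all cells over the stages. This count is at the background, since 10.2% of 20831 genes were called. It was 1.23-fold higher in mutants (log2 0.30, SE 0.09, adjusted p = 0.0309). The median log2 fold change of the 10 members was 0.12 and that of all genes 0.02. At E9.5 Fzd4 was again the one member called, beside 10.3% of 17227 genes. Controls ran from 7.44 through 10.96 to 16.0 CPM and mutants from 10.8 through 17.3 to 19.3 CPM (n = 6 each), so the ranges overlapped. They pool the runs, which the fit had as a term, and include Bar6 with its 6 cells. The mutants were 1.33-fold higher (log2 0.41, SE 0.11, adjusted p = 0.0346). At E8.0 Fzd4 lay at 16.0, 18.2 and 21.9 CPM in controls, overlapping 17.5, 23.3 and 23.8 CPM in mutants (log2 0.12, SE 0.15, adjusted p = 0.793). At E8.5 the single mutant had 15.6 CPM (exact Poisson 95% interval 13.3 to 18.1) and the controls 9.85 CPM (9.08 to 10.7) and 11.5 CPM (5.49 to 21.1), with no test.

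The Fzd4 call over all stages was lost in each run alone, without the E9.5 samples, without a filter on low counts, with limma on mean CPM per cell, with the share of male cells as a covariate, without erythroid- and endothelial-positive cells, and without each of Bar1, Bar9, Bar19, Bar22, Bar23, Bar24, Bar25 and Bar28, while its log2 value stayed between 0.23 and 0.61. Few genes of any kind passed in run 1 (2 of 17577), run 2 (27 of 12966) or run 3 alone (57 of 11838). Without the E9.5 samples 1 of 18646 passed, against 2132 of 20831 in the main fit. With limma 506 and with the male share 651 of 20831 passed, so a lost call in these fits is not particular to Fzd4. At E9.5 the Fzd4 value was as large without erythroid- and endothelial-positive cells (log2 0.43, adjusted p = 0.0269), and the call was lost without the filter, in run 1 or run 3 alone and without each of Bar8, Bar9, Bar22 and Bar23. Erythroid cells, which had little Fzd4, made up 19.2 ± 11.6% of E9.5 control samples (n = 5) and 15.9 ± 7.37% of mutant ones (n = 6). Cranial mesenchyme cells, also low in Fzd4, made up 9.29 ± 4.17% and 3.35 ± 2.21%, and cardiomyocyte cells, where Fzd4 was higher, 8.82 ± 3.36% and 11.7 ± 4.94%. Endothelial cells made up 2.04 ± 0.341% and 1.81 ± 0.974%. Class shares also depend on depth, since a marker needs 2 UMIs. In the same samples median UMIs per cell ran from 12386 (Bar9) to 24431 (Bar4) in controls. In mutants they ran from 9759.5 (Bar10) to 21308.5 (Bar20). The part of the class shares in the Fzd4 difference was not tested. The share of cells with a UMI of Ddx3y, Eif2s3y, Kdm5d or Uty, all on the Y chromosome, was 90.4 to 93.9% in E8.0 mutants and 18.9 to 58.1% in E8.0 controls, so genotype and sex cannot be told apart at that stage. At E9.5 the shares were uneven too. In run 1 they were 17.1 and 16.4% in controls and 88.3, 19.5 and 85.8% in mutants. Over all runs the E9.5 ranges overlapped. The Fzd4 call at E9.5 was not lost with the male share as a covariate.

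Fzd1 was the other member with an unadjusted p below 0.05 at E9.5. Controls ran from 5.44 through 15.0 to 22.3 CPM and mutants from 16.2 through 18.0 to 23.6 CPM, overlapping. These ranges pool the runs and include Bar6, where 3 counts equal 22.3 CPM. The log2 difference of 0.45 (SE 0.16) did not pass in edgeR (adjusted p = 0.0803). It passed in DESeq2 (log2 0.51, adjusted p = 0.0287) and without erythroid- and endothelial-positive cells (log2 0.51, adjusted p = 0.0355). At E8.0 no member was called by edgeR or DESeq2, none had an unadjusted p below 0.05, and 0.0244% of 16416 genes passed. In the test of a different genotype effect at E9.5 and E8.0 no member passed (0 of 10 by edgeR and DESeq2, 0 at an unadjusted p below 0.05). Of all genes 0.464% passed by edgeR and 397 of 17872 by DESeq2. For Fzd4 the difference was 0.30 on the log2 scale (SE 0.18, adjusted p = 0.557 by edgeR).

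Within lineages, edgeR called none of 52 tests of members between mutants and controls, and 8 had an unadjusted p below 0.05. The background of adjusted calls was low in most classes: 1.04% in cardiomyocyte cells, 0.101% in endothelial, 0.0180% in erythroid, 3.73% in anterior heart field and pharyngeal, 0.0962% in posterior heart field and splanchnic, 6.11% in paraxial, 2.43% in cranial mesenchyme and 0.0357% in allantois and posterior lateral plate cells. The unadjusted p was below 0.05 for 1952 of 12781 genes in cardiomyocyte cells, 574 of 8949 in endothelial, 789 of 11131 in erythroid and 1530 of 8607 in anterior heart field cells. In posterior heart field cells it was so for 1526 of 12479 genes, in paraxial 2192 of 10101, in cranial 1951 of 10406 and in allantois cells 1011 of 11219. Fzd2 in paraxial cells came nearest, with means of 298 CPM in 6 mutant and 240 CPM in 7 control samples (log2 0.31, SE 0.09, adjusted p = 0.057). It passed with 1 marker fewer or more, with at least 50 cells per sample, and with the size factors of DESeq2. Fzd4 in cranial mesenchyme cells had 12.2 and 7.13 CPM (log2 0.87, SE 0.26, adjusted p = 0.0832), and in cardiomyocyte cells 22.8 and 24.5 CPM (log2 -0.05, SE 0.15). Fzd1 in cardiomyocyte cells had 30.3 CPM in 9 mutant and 19.6 CPM in 9 control samples (log2 0.57, SE 0.22, adjusted p = 0.212).

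**Figure D5:**
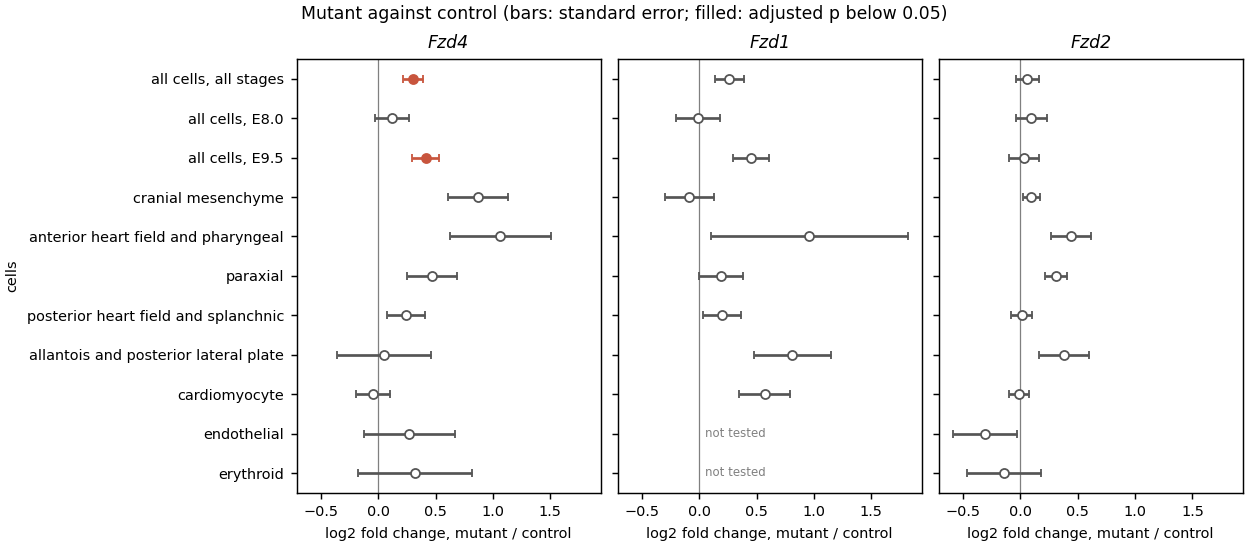
Log2 fold change of Fzd4, Fzd1 and Fzd2, mutant over control (horizontal axis; bars give the standard error, filled points an adjusted p below 0.05), in all cells and in the cells of each marker list. The filled points are Fzd4 in all cells over the stages (0.30) and at E9.5 (0.41), and most other bars reach or come near 0.

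Of 27 other genes that act at the receptor, co-receptors, receptor-turnover genes, glypicans and the first cytoplasmic partners, 2 were higher and 1 lower in mutants over all stages, a share near the 10.2% of all genes. The higher ones encode glypicans, cell-surface proteoglycans that bind Wnt: Gpc6 (log2 0.44, SE 0.11, adjusted p = 0.014) and Gpc3 (log2 0.28, SE 0.09, adjusted p = 0.0408). Gpc4, the other glypican of the list, did not pass, with a log2 value of -0.076 (SE 0.20, adjusted p = 0.897) over all stages and -0.054 (SE 0.23, adjusted p = 0.939) at E9.5. At E9.5 Gpc6 ran from 25.1 through 57.4 to 68.2 CPM in controls and from 68.3 through 84.9 to 94.6 CPM in mutants, without overlap. Gpc3 ran from 211 to 387.2 CPM in controls and from 387.4 to 459 CPM in mutants. Axin1, a scaffold of the complex that degrades beta-catenin, was lower (log2 -0.23, adjusted p = 0.0335). By edgeR Axin1 was not called at E9.5 (log2 -0.30, adjusted p = 0.0625) or at E8.0 (log2 -0.08, adjusted p = 0.788). Gpc6 and Gpc3 were called at E9.5 and not at E8.0. The alternatives used for Fzd4 are not given for Gpc6, Gpc3 or Axin1. The median log2 fold change of the 27 genes was -0.00069 and that of all genes 0.018. From E8.0 to E9.5, 4 of the 27 rose and 4 fell, beside 19.5% of all genes. Shisa3, whose family holds Frizzled proteins inside the cell, rose by 2.70 on the log2 scale, with Gpc4 (1.03), Gpc6 (0.98) and the receptor Ror1 (0.54). The Wnt target and R-spondin receptor Lgr5 fell by 0.75, Shisa2 by 0.45, the co-receptor Lrp5 by 0.38 and Ryk by 0.27.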

How the data were processed

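Cells of 22 barcode samples from 3 sequencing runs were analysed. The authors deposited 1 table of UMI counts per gene and cell with stage, genotype and barcode for each cell. The submitters' processing notes name kallisto, bustools 0.46.1, Cell Ranger and GRCm38. The annotation and the strand setting are not given in the sources used here. Gene positions are from GENCODE M21 on GRCm38 and promoters from RefSeq. Doublets were neither called nor removed here.

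UMIs were summed per barcode sample, or per sample and marker-positive class with at least 20 cells. Genes passing edgeR's filterByExpr were tested with its quasi-likelihood test (edgeR 4.0.16, R 4.3.3, TMM scaling, two-sided, Benjamini-Hochberg adjustment over all genes tested, threshold 0.05). Genotype fits had stage and run as terms (run alone at E9.5, none at E8.0), stage fits had genotype as a term, and positive and other cells were compared with the sample as a block. Standard errors are the log2 fold change divided by the square root of the F statistic. DESeq2 1.42.0 and limma 3.58.1 were alternatives. The E7.5 sample was part of the all-cell genotype fit over the stages and of the all-cell stage fits, with a stage term of its own. It thus counted in the filter and the scaling there, but its stage was compared with no other. All other fits left it out. Sample totals ran from 134457 to 61307782 UMIs, and intervals are exact Poisson at 95% and cover counting error only. The scripts were tested on simulated data.

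The named genes are all 10 members, the pathway genes past the threshold between genotypes or stages, and the 3 genes most like each member above 10 CPM. The pathway genes named for stage were chosen after their values were seen. The members and lists were chosen with earlier results of these data known. The number of markers required was set after marker counts were seen, and the stage fits within lineages and the test of their difference were added after values by stage had been seen.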

Additional observations from a re-analysis of the deposited data

Results flagged for a closer look

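Of 49 groups of 4 to 10 samples examined for a single distant value, 4 had one, and chance gives about 1 in 20 for normally spread values. The groups of marker-positive cells pooled stages and genotypes, and some held many zeros, so that rate is only a rough guide. Fzd3 in Bar6, the E9.5 control of 6 cells, was at 112 CPM, and the other 5 controls lay between 28.0 and 50.4 CPM. Fzd10 in the same sample was at 37.2 CPM, against 3.77 to 11.2 CPM. Fzd9 in allantois and posterior lateral plate cells of Bar29, an E8.0 control, was at 2.66 CPM, from 2 UMIs in 22 cells, against 0 to 0.590 CPM in the other samples. Fzd4 in anterior heart field and pharyngeal cells of Bar21, an E9.5 mutant, was at 71.4 CPM, against 19.8 to 27.6 CPM.

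The change of Fzd4 from E8.0 to E9.5 differed between endothelial and posterior heart field cells by 2.775 on the log2 scale (edgeR, adjusted p = 9.76e-05), in a test of the difference itself. That test had no term for genotype within a class. The control sample labelled E7.5, whose stage was compared with no other, had a summed Frizzled level of 88.6 CPM from 44 UMIs. Fzd5 made up 16.1 CPM of it, and 64.3% of its cells were positive for erythroid markers.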

How the results depend on the processing

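Of 688 refitted fold changes of called members, 602 kept direction and call, 84 lost the call and 2 reversed: Fzd1 in anterior heart field cells with cells of several lists kept (0.37) and Fzd3 in cranial mesenchyme cells with at least 50 cells per sample (-0.033). The count of members called between genotypes in all cells was 1 and became 0 without a filter on low counts, in run 1, run 2 or run 3 alone, without the E9.5 samples, without erythroid- and endothelial-positive cells, with the male share as a covariate and with limma. Few genes of any kind passed in run 1 (2 of 17577), run 2 (27 of 12966) or run 3 alone (57 of 11838). Without the E9.5 samples 1 of 18646 passed. With limma 506 and with the male share 651 of 20831 passed, against 2132 in the main fit. Leaving out samples 1 at a time gave a count of 0 to 1 members. At E9.5 the count of 1 became 0 without the filter and in run 1 or run 3 alone, and 2 with DESeq2 and without erythroid- and endothelial-positive cells, and 0 to 2 with samples left out. From E8.0 to E9.5 the count of 3 became 0 in controls alone and 2 with run as a further term, where Fzd4 was lost (adjusted p = 0.147). It was 2 without Bar25, Bar26 or Bar29, and 3 in run 1 alone, with Fzd7 in place of Fzd4. Of all genes, 652 of 19579 passed in controls alone, 3774 of 20831 with run as a further term and 5222 of 17577 in run 1 alone. From E8.0 to E8.5 the count of 2 became 1 with run as a further term, and 0 to 2 with samples left out. Within lineages the genotype count of 0 became 1 with 1 marker fewer, 1 marker more, at least 50 cells or the size factors of DESeq2. For scale, the main fits called 10.3% of genes between genotypes at E9.5 and 15.4% from E8.0 to E8.5. Between genotypes within lineages they called 1.58% of gene tests. The shares in the refits of these comparisons are not given here. The stage count of 11 became 4 in controls alone and 7 to 12 with samples left out, 7 without Bar19. In controls alone fewer genes of any kind passed in these lists, 621 of 12095 against 2586 of 11701 in cardiomyocyte cells. In erythroid cells it was 2037 of 11945 against 3350 of 10254. In posterior heart field cells it was 642 of 12307 against 2168 of 11433. The cause of these changes in the counts was not tested. No paired analysis was possible because barcode numbers, the only replicate names, are not shared between genotype or stage groups. Runs are shared between genotypes at E9.5, where run was a term of the fit. Small samples limit the low members: 3 counts equal 22.3 CPM in Bar6.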
